A study of Mus musculus with 18 samples.

Results

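Messenger RNA was compared between the urinary bladders of mice on a vitamin A-enriched diet and mice on a normal diet, 3 days after a dose of cyclophosphamide. The comparison holds 6 of the 18 libraries of the series, chosen by the diet, injection and day in their titles. It sets 3 vitamin A libraries against 3 normal diet libraries, which the labels call biological replicates. All the mice were wild-type female BALB/c aged 8 weeks, and all 6 had received cyclophosphamide at 150 mg/kg into the peritoneum. Cyclophosphamide is an alkylating drug whose metabolites pass into urine and injure the urothelium, the epithelium of the bladder. The vitamin A diet was started 1 week before the injection. The sample labels give it as 566081 UI of retinyl acetate per kg, whereas the text of the series speaks of retinyl palmitate at 36 times the normal amount. Whole bladders were taken, so fewer cells of a type and less RNA per cell cannot be told apart in these libraries. Mice lived 3 to a cage and the labels do not tie mice to cages, so the effects of diet and cage cannot be told apart. The other 12 libraries came from mice on the same diets 1 day after cyclophosphamide or 1 day after saline.

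Vitamin A is taken up as retinol, stored as retinyl esters by lecithin retinol acyltransferase (Lrat), and oxidised through retinal to retinoic acid. Retinoic acid binds the receptors Rara, Rarb and Rarg, which pair with the retinoid X receptors on DNA. The enzymes of the Cyp26 family break retinoic acid down, and Cyp26 genes, Rarb, Dhrs3 and Lrat are among the genes that retinoic acid is known to switch on. In the bladder, retinoids are known for their part in forming and renewing the urothelium, and vitamin A deficiency is known to turn it into a keratinising, squamous epithelium.

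The 6 libraries held 24369733 to 34202891 counts, and the named genes tested numbered 19323. Mitochondrial genes took 1.664% to 2.328% of the counts. Vitamin A replicate 2 stood apart. Genes under 1000 bases took 14.24% of its counts, against 7.128% to 9.593% in the other 5 libraries, and its mean correlation with the other libraries of its group, 0.9478, was the lowest of the 18 libraries. Its summed smooth muscle signal was the highest, 40353 CPM (counts scaled to library size), against 24804 and 19092 CPM in vitamin A replicates 1 and 3. The normal diet libraries had 14177, 25822 and 22717 CPM of these genes. The labelled tissue showed in the urothelium. Genes of umbrella cells and urothelial differentiation summed to 10040, 15244 and 16200 CPM on vitamin A. On the normal diet they summed to 15708, 11818 and 13045 CPM. Genes of the female genital tract and other epithelia summed to 56.9, 45.3 and 43.0 CPM on vitamin A and 47.1, 69.8 and 47.4 CPM on the normal diet, with 7 of the 13 passing the filter on low counts. Where leaving it out turned the sign of a list median or moved it by over 1.5 times, the median without it stands in parentheses after the full one.

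Cyp26b1, the cytochrome P450 that degrades retinoic acid, rose in vitamin A bladders and was the 1 gene past an adjusted p of 0.05 in edgeR's quasi-likelihood test (0.00518% of the 19323 genes tested). Its counts were 439, 379 and 552 in the vitamin A libraries, against 84, 88 and 54 in the normal diet libraries. Scaled to depth, these were 17.5, 16.2 and 17.3 CPM on vitamin A and 2.41, 2.58 and 1.81 CPM on the normal diet. The groups did not overlap, and the values within each diet lay close together. The mean was 17.0 ± 0.71 CPM on vitamin A and 2.27 ± 0.41 CPM on the normal diet (SD, n = 3 each). That is a 7.47-fold difference with a 95% interval of 4.15 to 13.4 (log2 change 2.90, SE 0.40, edgeR adjusted p = 0.0197).

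The size of the Cyp26b1 difference did not rest on any single library, since its log2 change was 2.76 to 3.00 with each of the 6 left out in turn. The adjusted p did depend on having all 6. It was 0.105, 0.153 and 0.0678 without vitamin A replicates 1, 2 and 3, and 0.119, 0.183 and 0.362 without normal diet replicates 1, 2 and 3. DESeq2 gave an adjusted p of 1.876e-09 and limma's voom with sample weights gave 0.0234 for the same gene. The call was also lost when no filter on low counts was used, with an edgeR adjusted p of 0.104.

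In the deposited GRCm39 annotation Cyp26b1 lies on the minus strand at chr6:84548396-84570890. Its promoter is shown because it is the gene that rose. The window runs from 250 bases before to 50 bases after the start of the gene, from RefSeq on build GRCm38.p6 (chr6:84593761-84594060, minus strand). Capitals mark the letters TATAAA, which begin 139 bases before the start and occur on either strand in 13.6% of all promoter windows of this length.
Cyp26b1: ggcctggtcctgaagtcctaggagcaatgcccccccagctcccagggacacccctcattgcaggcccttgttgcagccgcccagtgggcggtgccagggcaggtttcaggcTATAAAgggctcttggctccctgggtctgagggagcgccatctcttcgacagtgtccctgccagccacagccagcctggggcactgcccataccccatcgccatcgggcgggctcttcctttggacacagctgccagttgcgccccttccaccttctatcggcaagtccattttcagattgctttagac

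The other members of the Cyp26 family were close to undetected. Cyp26a1 had 1, 7 and 3 counts in the vitamin A libraries, against 13, 0 and 1 in the normal diet libraries. Cyp26c1 had 6, 0 and 6 counts on vitamin A and 9, 0 and 7 on the normal diet, and neither passed the filter on low counts. Per length, Cyp26b1 itself was a low-level transcript on both diets, with 1.33 ± 0.05 FPKM on vitamin A and 0.18 ± 0.03 FPKM on the normal diet (SD, n = 3 each).

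Lrat, which esterifies retinol for storage, had 11.9, 10.7 and 5.85 CPM in vitamin A bladders, against 2.52, 3.93 and 1.2 CPM in normal diet bladders. Every vitamin A library was above every normal diet library, and the log2 change was 1.88 with a 95% interval of 0.77 to 3.00. Its edgeR adjusted p was 0.994, so it did not pass the test across all genes. Of the 6 genes for retinyl ester storage and release, 5 had a log2 change above 0, with a list median of 0.16 (0.06 without vitamin A replicate 2), against 49.7% above 0 and a median of -0.002 over all tested genes. Lrat was the 1 of these 6 with an unadjusted p under 0.05, which 2.06% of all tested genes had in the higher direction.

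Among the enzymes that interconvert retinol and retinal, Dhrs3, which reduces retinal back to retinol, had 301, 381 and 317 CPM on vitamin A, against 236, 231 and 202 CPM on the normal diet. The groups did not overlap, and the log2 change was 0.58 (95% interval 0.26 to 0.89, edgeR adjusted p = 0.994). Adh1, an alcohol dehydrogenase that oxidises retinol, had 580, 839 and 809 CPM on vitamin A and 644, 530 and 546 CPM on the normal diet (log2 change 0.37). Here the groups overlapped, because vitamin A replicate 1 lay below normal diet replicate 1. Dhrs3 and Adh1 were the 2 of 13 tested genes of this list with an unadjusted p under 0.05. The share of all tested genes with such a p in the higher direction was 2.06%. The list median was 0.17 (-0.02 without vitamin A replicate 2). Rdh10, the enzyme that oxidises retinol to retinal in the mouse embryo, had 32.5, 31.1 and 37.0 CPM on vitamin A and 30.7, 28.4 and 30.1 CPM on the normal diet (log2 change 0.17, 95% interval -0.16 to 0.50). Adh7, another alcohol dehydrogenase active on retinol, had a log2 change of -0.05 with an interval of -0.68 to 0.57, which includes a change in either direction.

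The enzymes that make retinoic acid gave no call. The 5 tested genes of the list had a median log2 change of -0.22, and 2 of them were above 0. Cyp1b1, a cytochrome P450 that can oxidise retinol, had 65.6, 33.2 and 73.8 CPM on vitamin A, against 76.1, 57.3 and 133 CPM on the normal diet (log2 change -0.62, unadjusted p = 0.0487, edgeR adjusted p = 0.994), and the log2 change was -0.35 without vitamin A replicate 2. It was the 1 gene of the list with an unadjusted p under 0.05, against 1.7% of all tested genes in the lower direction. The retinal dehydrogenase Aldh1a3 had 10.1, 7.13 and 5.32 CPM on vitamin A and 9.28, 7.84 and 4.72 CPM on the normal diet, a log2 change of 0.04 (95% interval -0.74 to 0.82).

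The list for retinoid uptake and binding gave no call. Rbp7, a cellular retinol-binding protein, had 3.47, 13.1 and 3.19 CPM on vitamin A and 3.98, 2.38 and 2.84 CPM on the normal diet, with a log2 change of 1.10 (unadjusted p = 0.0409, edgeR adjusted p = 0.994). The high value was vitamin A replicate 2, and without that library the log2 change was 0.11. The summed CPM of the 10 tested genes for uptake and binding overlapped between the diets, and 5 of the 10 were above 0, with a median of 0.08 (-0.16 without vitamin A replicate 2).

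Of the receptors and cofactors, 4 of 12 had a log2 change above 0, and the list median was -0.06 (0.08 without vitamin A replicate 2). Rarb, the receptor that retinoic acid is known to induce, had 18.3, 19.7 and 24.5 CPM on vitamin A, against 18.2, 11.7 and 16.7 CPM on the normal diet. The lowest vitamin A library stood just above the highest normal diet library, and the log2 change was 0.42 (95% interval 0.02 to 0.83, unadjusted p = 0.0399, edgeR adjusted p = 0.994). Rxrg, a retinoid X receptor, had 0.439, 0.384 and 1.60 CPM on vitamin A and 1.86, 2.64 and 1.77 CPM on the normal diet (log2 change -1.35, unadjusted p = 0.0254, edgeR adjusted p = 0.994). Its level was low, with 11, 9 and 51 counts in the vitamin A libraries. Rarb and Rxrg alone of the list had an unadjusted p under 0.05. Of all tested genes, 2.06% had one in the higher direction and 1.7% in the lower.

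The promoter of Rarb is shown because it carries the classical response element of the retinoic acid receptors. The window is from RefSeq on build GRCm38.p6 (chr14:16575427-16575726, minus strand). In the deposited GRCm39 annotation Rarb lies on the plus strand at chr14:5387365-6038924, and the window was not converted to that build. Capitals mark a pair of receptor hexamers in direct repeat with 5 bases between them. The pair begins 53 bases before the RefSeq start that the window is set on. The counts are of the whole gene and not of a transcript from this start.
Rarb: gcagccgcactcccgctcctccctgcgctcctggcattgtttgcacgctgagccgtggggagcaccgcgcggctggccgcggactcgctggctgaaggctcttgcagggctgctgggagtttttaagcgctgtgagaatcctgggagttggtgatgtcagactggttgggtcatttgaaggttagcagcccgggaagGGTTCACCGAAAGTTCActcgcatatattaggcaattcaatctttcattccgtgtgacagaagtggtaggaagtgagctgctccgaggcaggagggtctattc

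The hexamers searched on both strands were AGGTCA, or AGTTCA, or GGGTCA, or GGTTCA, in any combination. The repeat was in 32 of 32851 promoter windows (0.0974%), which belong to 31 genes. Of the 54 retinoid list genes with a window, Rarb and Cyp26a1 held it, and the Cyp26b1 window above did not. Of the 31 genes, 9 were tested, and 8 of these had a log2 change above 0, against 49.7% of all tested genes. The median was 0.42, and Gm4631, which was below 0, had -3.94 (edgeR unadjusted p = 0.202). Rarb and Syndig1 were the 2 of the 9 with an unadjusted p under 0.05, against 3.76% of all tested genes. No set test was made. None of the 9 passed the adjusted test, and Cyp26b1, which did, lacks this repeat in its window. Other spacings and bases outside the windows were not searched, so the search does not show whether Cyp26b1 has a response element elsewhere.

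The list of known retinoic acid target genes had 21 tested members, of which 1, Cyp26b1, passed the adjusted test. Cyp26b1, Dhrs3, Lrat and Rarb were among its members with an unadjusted p under 0.05. Of all tested genes, 2.06% had one in the higher direction. None of its 7 members below 0 had one, against 1.7% of all tested genes in the lower direction. In 4 of the 21 every vitamin A library was above every normal diet library, which held for 2.85% of all tested genes. The other members were spread about 0, and the list median was 0.07. Levels per length varied widely among the retinoid genes. Adh1, which is on the interconversion list and not on this one, averaged 519 FPKM on vitamin A and 402 FPKM on the normal diet. Dhrs3 averaged 67.5 FPKM on vitamin A and 45.4 FPKM on the normal diet. Rarb averaged 5.40 FPKM on vitamin A and 4.04 FPKM on the normal diet. Lrat averaged 1.74 FPKM on vitamin A and 0.47 FPKM on the normal diet, close to Cyp26b1.

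**Figure D1:**
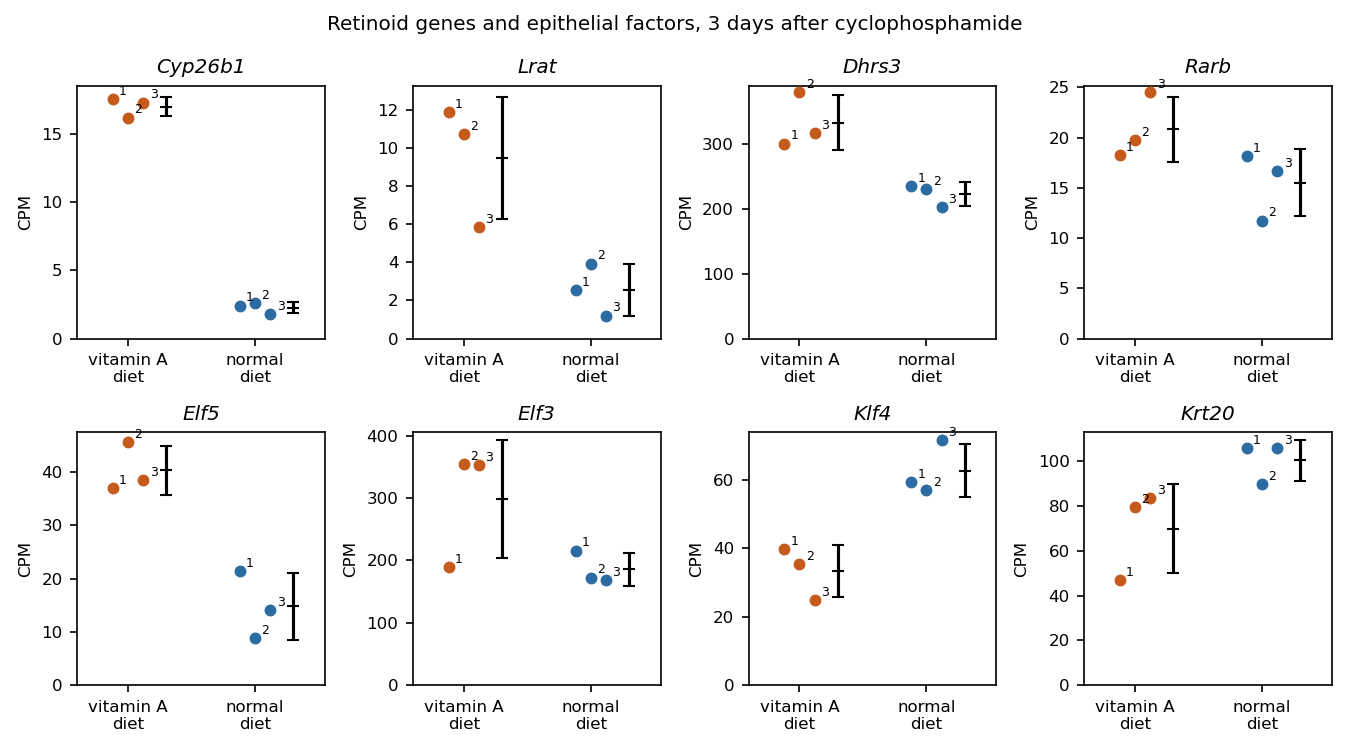
Level in each library, in CPM on a linear axis from 0, of 8 genes in vitamin A bladders (left in each panel) and normal diet bladders (right), 3 days after cyclophosphamide. Points are mice, marked by replicate number, and the bar gives mean ± SD (n = 3). The diets are clearly separate for Cyp26b1 and Elf5, and they overlap for Elf3.

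The genes other than Cyp26b1 that stood highest by p-value were led by Elf5, an ETS-family transcription factor of glandular and stratified epithelia. Elf5 had 37.0, 45.6 and 38.5 CPM on vitamin A, against 21.5, 8.87 and 14.1 CPM on the normal diet. Every vitamin A library was above every normal diet library, and the log2 change was 1.45 (95% interval 0.92 to 1.97, edgeR adjusted p = 0.157). It was past the threshold with DESeq2 (adjusted p = 0.000203) and with limma's voom (adjusted p = 0.0117). The sample weights of limma's voom were unequal over the 6 libraries, from 0.152 for vitamin A replicate 2 to 4.41 for normal diet replicate 3. Without normal diet replicate 1, the highest of its group, Elf5 was the 1 gene called by edgeR, with a log2 change of 1.81 (adjusted p = 0.0173).

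DESeq2 called 11 genes (0.0569% of those tested) and limma's voom called 7 (0.0362%). Cyp26b1, Elf5, Fgl1, Gm22442, Klf4 and Apcdd1 were called by both, and they are the 6 genes on both lists. DESeq2 also called Pdk4, Gm9530, Fcrls, Xlr3b and Ccdc96, and limma's voom also called Itih2. With edgeR, 727 genes (3.76%) had an unadjusted p under 0.05, 399 of them higher and 328 lower on vitamin A. Chance alone would give 966 genes at this threshold. The number found was 2280 without vitamin A replicate 1, 1704 without vitamin A replicate 3 and 326 when the 6 libraries were fitted alone.

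Pdk4, the kinase that turns off pyruvate dehydrogenase and so shifts fuel use from glucose to fat, had 78.6, 64.5 and 55.3 CPM on vitamin A, against 42.6, 40.1 and 33.2 CPM on the normal diet (log2 change 0.77, edgeR adjusted p = 0.389). The groups did not overlap. Fgl1, a secreted fibrinogen-like protein best known from liver, had 3.23, 4.57 and 4.10 CPM on vitamin A and 0.544, 0.411 and 1.07 CPM on the normal diet. Its log2 change of 2.55 (95% interval 1.38 to 3.73, edgeR adjusted p = 0.712) was close in size to that of Cyp26b1, at a lower level. Gm9530 had 2.43, 3.63 and 2.00 CPM on vitamin A, against 0.63, 0.558 and 0.702 CPM on the normal diet (log2 change 2.08, edgeR adjusted p = 0.36).

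The rest of the 12 higher genes with the smallest p-values, all with groups that did not overlap by the rule that chose them, had smaller changes or lower levels. Cd24a, a surface glycoprotein of epithelial and blood cells, had 228, 272 and 238 CPM on vitamin A, against 189, 158 and 163 CPM on the normal diet (log2 change 0.53). Defb1, an antimicrobial defensin, had 7.69, 14.0 and 4.29 CPM on vitamin A and 3.24, 3.20 and 3.91 CPM on the normal diet (log2 change 1.32, and 0.79 without vitamin A replicate 2). Itih2, a protein that binds hyaluronan, had 20.3, 11.4 and 16.2 CPM on vitamin A and 7.65, 7.22 and 6.79 CPM on the normal diet (log2 change 1.14). Gm38524 and Eva1c had log2 changes of 1.12 and 0.73. Each of these genes had an edgeR adjusted p of 0.994.

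The 12 lower genes with the smallest p-values began with Klf4, a transcription factor of differentiating barrier epithelia. Klf4 had 39.7, 35.2 and 24.8 CPM on vitamin A, against 59.3, 57.0 and 71.4 CPM on the normal diet. The groups did not overlap, and the log2 change was -0.91 (95% interval -1.30 to -0.52, edgeR adjusted p = 0.36). Apcdd1, a membrane protein that inhibits Wnt signalling, had 31.3, 21.8 and 31.6 CPM on vitamin A, against 48.9, 50.8 and 56.8 CPM on the normal diet (log2 change -0.89, edgeR adjusted p = 0.36). Again each vitamin A library was below each normal diet library.

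Further genes of the 12 are known from myeloid cells. Fcrls, a scavenger receptor-like gene of mouse macrophages, had 3.83, 3.37 and 1.5 CPM on vitamin A and 9.05, 6.78 and 7.76 CPM on the normal diet (log2 change -1.45, edgeR adjusted p = 0.36). Clec12a, an inhibitory lectin of myeloid cells, had 1.83, 1.83 and 1.13 CPM on vitamin A, against 6.33, 3.20 and 3.41 CPM on the normal diet (log2 change -1.44). Nod2, a sensor of bacterial muramyl peptide, had a log2 change of -1.48, and Sirpa, the myeloid receptor for Cd47, had -0.40. Ccr2, the chemokine receptor of inflammatory monocytes, was not among the 12 but had 11.4, 7.08 and 12.4 CPM on vitamin A, against 28.9, 17.2 and 20.2 CPM on the normal diet (log2 change -1.10, unadjusted p = 0.0218, edgeR adjusted p = 0.994). It was the 1 of 17 tested macrophage and monocyte markers with an unadjusted p under 0.05, against 1.7% of all tested genes in this direction. Of the 17 markers 7 were above 0, and the list median was -0.14. The markers of this list had summed levels of 1287.6, 1188.8 and 782.02 CPM on vitamin A and 1300.6, 1119.4 and 933.02 CPM on the normal diet, which overlap.

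The other lower genes of the 12 were Tek, the angiopoietin receptor of endothelium (log2 change -0.68), Smoc1, a calcium-binding protein of the extracellular matrix (-0.68), and Katnbl1, a regulator of the microtubule-severing katanin (-0.61). Kmo, an enzyme of tryptophan breakdown, had -1.43, Tmem88b had -1.85 and 6430548M08Rik had -0.52. All of these had an edgeR adjusted p of 0.994.

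**Figure D2:**
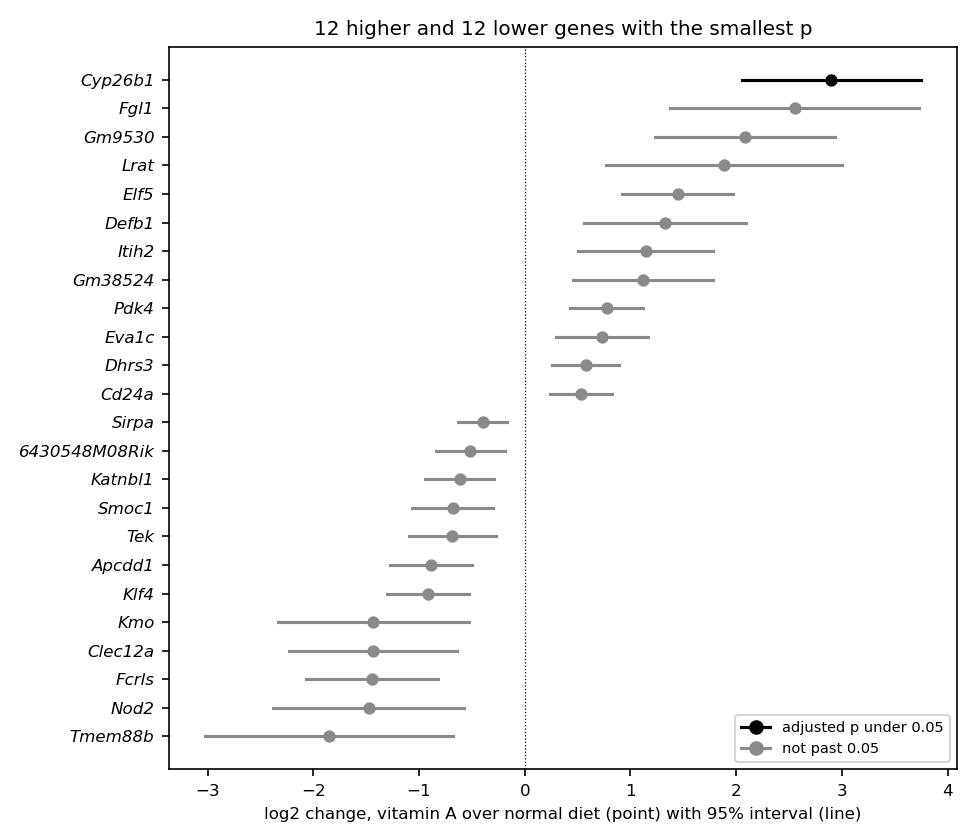
Log2 change, vitamin A over normal diet (points), with its 95% interval (lines) for the 12 higher and 12 lower genes with the smallest p among genes whose groups did not overlap. Black marks an edgeR adjusted p under 0.05 and grey marks the rest; Cyp26b1, at 2.90, is the only black point.

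Among the genes chosen for naming, Gm22442, Cxcl3 and Krt77 were at 0 counts throughout a group. Genes outside that choice were not searched for an empty group. Gm22442 had 31, 5 and 31 counts in the vitamin A libraries and 0 in each normal diet library. That is at least 27.4-fold higher when the empty group is set to a floor of 3 counts in all. Its level was low, with 0.213 CPM in vitamin A replicate 2. Saline mice on the normal diet had more than that replicate, with 0.246, 0.486 and 0.484 CPM. The chemokine gene Cxcl3 had 13, 0 and 5 counts on vitamin A and 0 in each normal diet library, at least 7.37-fold higher. The keratin gene Krt77 had 0 counts in each vitamin A library, against 9, 19 and 15 on the normal diet, at least 11.7-fold lower. These bounds pool the libraries of a group and allow only for counting error in the empty group, not for the spread between mice. For Cxcl3, vitamin A replicate 2 had 0 counts as well, so the diets were not separate. None passed the adjusted test with edgeR, with adjusted p-values of 0.36, 0.994 and 0.994 in that order. Xlr3b had 0.199, 0.213 and 0.0313 CPM on vitamin A, against 10.9, 3.73 and 0.401 CPM on the normal diet. Its normal diet libraries were themselves far apart, and its edgeR adjusted p was 0.994.

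The uroplakins, which form the plaques of the umbrella cell surface, had log2 changes near 0 between the diets. Upk2 had 441, 604 and 719 CPM on vitamin A, against 630, 566 and 651 CPM on the normal diet, with a log2 change of -0.07 (95% interval -0.46 to 0.32). The log2 changes of Upk1a, Upk1b and Upk3a were 0.04 (-0.39 to 0.46), -0.10 (-0.49 to 0.28) and 0.20 (-0.33 to 0.74). Without vitamin A replicate 2, Upk1a had -0.07 and Upk3a had -0.04. Each of the 4 intervals includes 0 and leaves room for a modest change in either direction. Krt20, the keratin of mature umbrella cells, had 47.0, 79.4 and 83.4 CPM on vitamin A, against 106, 90.0 and 106 CPM on the normal diet. Every vitamin A library was below every normal diet library (log2 change -0.52, unadjusted p = 0.0109, edgeR adjusted p = 0.994). Groups that did not overlap in this direction made up 3.78% of all tested genes. Elf3, an epithelial ETS factor of urothelial differentiation, had 189, 354 and 353 CPM on vitamin A, against 216, 172 and 169 CPM on the normal diet (log2 change 0.69, unadjusted p = 0.0067, edgeR adjusted p = 0.994). Of the 20 genes of umbrella cells and urothelial differentiation 11 were above 0. The list median was 0.04 (-0.06 without vitamin A replicate 2).

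Basal and intermediate cell genes did not pass the test either. Krt5, the keratin of basal cells, had a log2 change of -0.37 (95% interval -0.77 to 0.02). Krt14, a keratin of basal progenitor cells, varied widely within both diets, with 22.3, 14.1 and 97.9 CPM on vitamin A and 92.7, 27.1 and 41.5 CPM on the normal diet (log2 change -0.26, and 0.16 without vitamin A replicate 2). The basal cell transcription factor Trp63 had a log2 change of 0.13, and Shh, the hedgehog ligand made by basal urothelium, had 0.24. Of the 16 genes of the list 4 were above 0, with a median of -0.08 (0.08 without vitamin A replicate 2). Krt13, a keratin of stratified epithelia including intermediate urothelium, had 7.57, 8.41 and 8.89 CPM on vitamin A, against 5.93, 4.08 and 2.91 CPM on the normal diet (log2 change 0.94, 95% interval -0.03 to 1.91). In the squamous list, which holds Krt13, Elf5 and Klf4, 9 of 20 genes were above 0 and the median was -0.04 (-0.15 without vitamin A replicate 2).

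**Figure D3:**
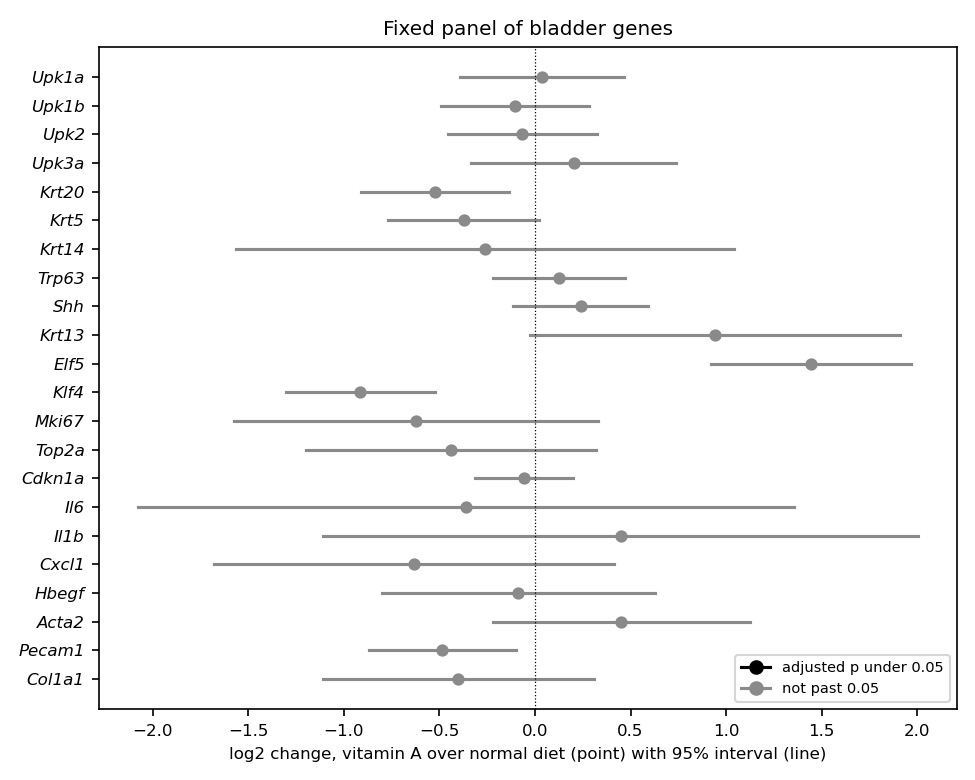
Log2 change, vitamin A over normal diet (points), with its 95% interval (lines) for a panel of 22 genes of the bladder lining, cell division, inflammation and stroma. The intervals of the 4 uroplakins include 0, those of Elf5 and Klf4 lie on either side of it, and no gene of the panel has an adjusted p under 0.05.

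The genes of cell division had levels on vitamin A that were below those on the normal diet on average, without passing the test. None of the 20 genes of mitosis had a log2 change above 0, and the median was -0.51 (-0.45 without vitamin A replicate 2), but none had an unadjusted p under 0.05. Mki67, a marker of cycling cells, had 50.3, 62.5 and 142 CPM on vitamin A, against 140, 103 and 150 CPM on the normal diet. Vitamin A replicate 3 was level with the normal diet libraries, and replicates 1 and 2 were below all of them. The log2 change was -0.62 with an interval of -1.57 to 0.33. Top2a, a topoisomerase of dividing cells, had 74.4, 74.3 and 115 CPM on vitamin A and 121, 107 and 130 CPM on the normal diet (log2 change -0.44). Kif23, a motor of cytokinesis, had a log2 change of -0.55. In the DNA replication list 3 of 20 genes were above 0, with a median of -0.16 (-0.09 without vitamin A replicate 2). These genes share the same cells and libraries, so they do not count as separate observations.

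Genes of the p53 response to DNA damage centred on 0, with 8 of 20 above 0 and a median log2 change of -0.02 (-0.04 without vitamin A replicate 2). The cell cycle inhibitor Cdkn1a had 241, 260 and 249 CPM on vitamin A, against 292, 266 and 222 CPM on the normal diet, and its interval of -0.31 to 0.20 was narrower than the median over all tested genes, whose half-width was 0.523. Among 27 growth factor and receptor genes 8 were above 0, with a median of -0.13 (-0.02 without vitamin A replicate 2). The stromal signals Bmp4, a bone morphogenetic protein, and Gli1, the transcription factor that hedgehog signalling induces, were the 2 genes of the list with an unadjusted p under 0.05, which 1.7% of all tested genes had in the lower direction. Bmp4 had 36.2, 27.3 and 19.7 CPM on vitamin A, against 36.9, 45.8 and 42.4 CPM on the normal diet (log2 change -0.59). Gli1 had 35.9, 20.4 and 22.2 CPM on vitamin A and 31.6, 46.5 and 43.0 CPM on the normal diet, which overlap (log2 change -0.62). Fgf10, a stromal growth factor for epithelium, had a log2 change of 0.93 with an interval of -0.29 to 2.16, and the EGF receptor ligand Hbegf had -0.09 with an interval of -0.80 to 0.63.

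Inflammatory cytokine and chemokine genes were measured at low levels 3 days after injury. Of the 21 tested 16 were above 0, with a median log2 change of 0.45, and 2, Cxcl3 and the monocyte attractant Ccl2, had an unadjusted p under 0.05, against 2.06% of all tested genes in the higher direction. Il6 had 0.638, 0.811 and 1.22 CPM on vitamin A, against 1.89, 0.91 and 0.635 CPM on the normal diet, and its interval of -2.08 to 1.35 leaves its direction undetermined. The neutrophil attractant Cxcl1 had a log2 change of -0.63 (-1.68 to 0.41) and Il1b had 0.45 (-1.11 to 2.00). The interferon list had 10 of 20 genes above 0, with a median of -0.05 (-0.11 without vitamin A replicate 2). Of the lymphocyte and antigen presentation markers 7 of 18 were above 0, with a median of -0.52. H2-Aa, a class II antigen-presenting molecule, had 21.6, 20.2 and 12.7 CPM on vitamin A, against 27.0, 22.8 and 33.1 CPM on the normal diet (log2 change -0.61, unadjusted p = 0.0244). Neutrophil markers had a median of -0.51 over 6 tested genes, and mast cell and eosinophil markers -0.36 over 7 (-0.79 without vitamin A replicate 2).

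Endothelial markers were below 0 in all 17 genes tested, with a median log2 change of -0.28 and -0.25 without vitamin A replicate 2. Of the 17, 4 had an unadjusted p under 0.05, namely Tek, Pecam1, the cadherin gene Cdh5 and the transcription factor gene Sox18, against 1.7% of all tested genes in the lower direction. In 4 of the 17 the groups did not overlap, against 3.78% of all tested genes. Pecam1, an adhesion molecule of endothelium, had 97.9, 66.1 and 76.4 CPM on vitamin A, against 117, 124 and 95.3 CPM on the normal diet (log2 change -0.48, 95% interval -0.87 to -0.10, edgeR adjusted p = 0.994). Vitamin A replicate 1 was within the range of the normal diet and the other 2 were below it. The summed levels of the list were 789.64, 644.17 and 665.86 CPM on vitamin A and 917.48, 932.26 and 769.02 CPM on the normal diet.

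Smooth muscle markers showed a shift that rested on 1 library. In the full set 17 of 18 genes were above 0, with a median log2 change of 0.38, and the median was 0.08 without vitamin A replicate 2. Tpm2, a tropomyosin of the contractile filament, had a log2 change of 0.71, and 0.02 without that library. Acta2, smooth muscle actin, had a log2 change of 0.45 (95% interval -0.22 to 1.13), and 0.08 without it. Fibroblast markers had a median of -0.07 over 17 genes (-0.24 without vitamin A replicate 2), and nerve markers -0.01 over 13 (-0.18 without it). Adipocyte markers had 0.13 over 14 (-0.01 without it) and skeletal muscle markers 0.03 over 11 (-0.24 without it). The median was 0.17 over 10 mesothelial genes, -0.15 over 8 red blood cell genes, and -0.21 over 7 genes of the female genital tract and other epithelia (-0.32 without vitamin A replicate 2). Uchl1, a ubiquitin hydrolase of nerves, had 24.8, 35.9 and 21 CPM on vitamin A, against 13.3, 15.7 and 8.96 CPM on the normal diet (log2 change 1.10, unadjusted p = 0.0165, edgeR adjusted p = 0.994).

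Matrix and wound repair genes included members on both sides of 0, with 10 of 28 above it and a median of -0.11. Mmp3, stromelysin, had 6.90, 3.93 and 2.16 CPM on vitamin A, against 1.03, 1.64 and 1.44 CPM on the normal diet (log2 change 1.65, unadjusted p = 0.0116). Ccn1, a matrix signalling protein of wound repair, had 13.6, 22.7 and 9.61 CPM on vitamin A and 46.3, 23.1 and 27.1 CPM on the normal diet (log2 change -1.07, unadjusted p = 0.0116). The groups did not overlap for these genes, though vitamin A replicate 2 and normal diet replicate 2 were nearly level for Ccn1. Mmp3 and Ccn1 alone of the 28 had an unadjusted p under 0.05. Of all tested genes, 2.06% had one in the higher direction and 1.7% in the lower. Groups that did not overlap made up 2.85% of all tested genes in the higher direction and 3.78% in the lower. Collagen Col1a1 had a log2 change of -0.40 (95% interval -1.11 to 0.31), and -0.24 without vitamin A replicate 2.

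Tight junction genes had 8 of 19 above 0 and a median of -0.02 (0.10 without vitamin A replicate 2). The claudin Cldn7 had a log2 change of 0.45 (unadjusted p = 0.0289), and 0.21 without that library. For oxidative stress and glutathione genes the median was 0.07 over 23 (-0.07 without it), with Gstm1, a glutathione transferase, at 0.38. Immediate early genes, which respond within minutes to handling as well as to growth signals, had 6 of 20 above 0 and a median of -0.26. Fos had 20.6, 25.6 and 24.7 CPM on vitamin A, against 144, 22.3 and 23.5 CPM on the normal diet. The high value was normal diet replicate 1 alone, and the log2 change of -1.42 became 0.04 without it. For the tight junction, oxidative stress and immediate early lists as for the others outside the retinoid genes, no member had an edgeR adjusted p under 0.05.

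**Figure D4:**
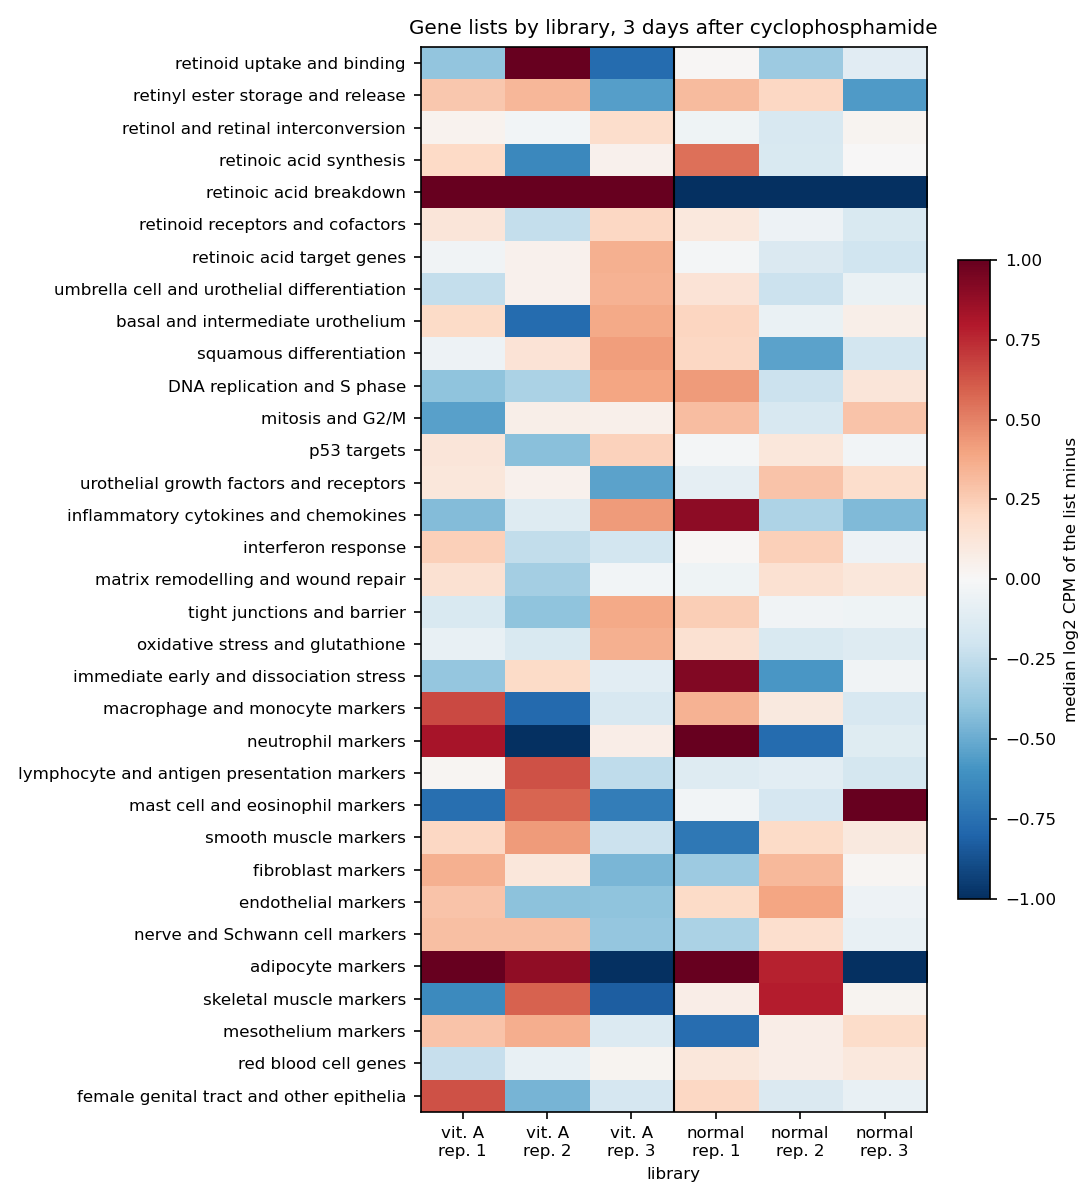
Median log2 CPM of 33 gene lists in each library, less the mean of that list over the 6 libraries (colour, limited to 1 log2 unit either way). The 3 columns left of the line are vitamin A bladders and the 3 right of it are normal diet bladders. Retinoic acid breakdown, which is Cyp26b1 alone among tested genes, separates the diets; smooth muscle is highest in vitamin A replicate 2.

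Whether the diet difference at 3 days differed from that at 1 day after cyclophosphamide was tested as an interaction, which uses a separate set of normal diet mice at each time. EdgeR called no gene at an adjusted p of 0.05 (0% of 19323), while the unadjusted p was under 0.05 for 1732 genes (8.96%), and for 2616 without vitamin A replicate 1 at 3 days. In this test DESeq2 called 87 genes and limma's voom called 0. For Cyp26b1 the diet log2 change was 2.90 at 3 days and 3.32 at 1 day, and the difference of -0.42 had an interval of -1.60 to 0.76. Elf5 had a diet log2 change of 1.45 at 3 days and 0.98 at 1 day, Lrat had 1.88 at 3 days and 1.35 at 1 day, and Rarb had 0.42 at 3 days and 0.35 at 1 day. For these genes the size of the diet difference could not be told apart between the days.

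Several other genes had diet log2 changes that differed in sign or in size between 3 days and 1 day, though none passed the adjusted test. Klf4 had -0.91 at 3 days and 0.13 at 1 day, a difference of -1.04 (unadjusted p = 0.000879, edgeR adjusted p = 0.309). Mki67 had -0.62 at 3 days and 1.5 at 1 day, a difference of -2.12 (unadjusted p = 0.00427, edgeR adjusted p = 0.328). Ccn1 had -1.07 at 3 days and 1.69 at 1 day, a difference of -2.76 (unadjusted p = 7.91e-05, edgeR adjusted p = 0.174). Dhrs3 had 0.58 at 3 days and -0.02 at 1 day, and Adh1 had 0.37 at 3 days and -0.55 at 1 day. For Aldh1a3, which was near level between the diets at 3 days, the diet log2 change at 1 day was 2.09 (edgeR adjusted p of the difference = 0.309). Hbegf likewise had -0.09 at 3 days and 1.84 at 1 day (edgeR adjusted p of the difference = 0.309). Upk3a had 0.20 at 3 days and -0.94 at 1 day (edgeR adjusted p of the difference = 0.347).

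Against saline-injected mice, which were taken at 1 day and so also differ in the day, edgeR called no gene at an adjusted p of 0.05 (0%), while the unadjusted p was under 0.05 for 464 genes (2.4%), and for 854, 772 and 883 without vitamin A replicates 1, 2 and 3. DESeq2 and limma's voom also called 0, with 609 and 1473 genes at an unadjusted p under 0.05. Cyp26b1 had a diet log2 change of 3.26 in saline mice, a difference of -0.36 with an interval of -1.49 to 0.78. In CPM, Cyp26b1 in saline mice was 44.5, 59.6 and 32.1 on vitamin A and 4.53, 1.94 and 7.57 on the normal diet, above the 3-day values of the same diet in each vitamin A library. Elf5 followed the same pattern, with 60.1, 72.9 and 51.6 CPM on vitamin A and 13.8, 19.4 and 16.9 CPM on the normal diet in saline mice. Among the 12 higher and 12 lower genes Gm9530 had the smallest p for a difference from saline (difference 2.47, unadjusted p = 0.000324, edgeR adjusted p = 1). Fgl1 had 0 counts in all 6 saline libraries, and at 1 day after cyclophosphamide it had 1.03, 1.89 and 1.59 CPM on vitamin A and 0.675, 0.682 and 1.62 CPM on the normal diet.

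**Figure D5:**
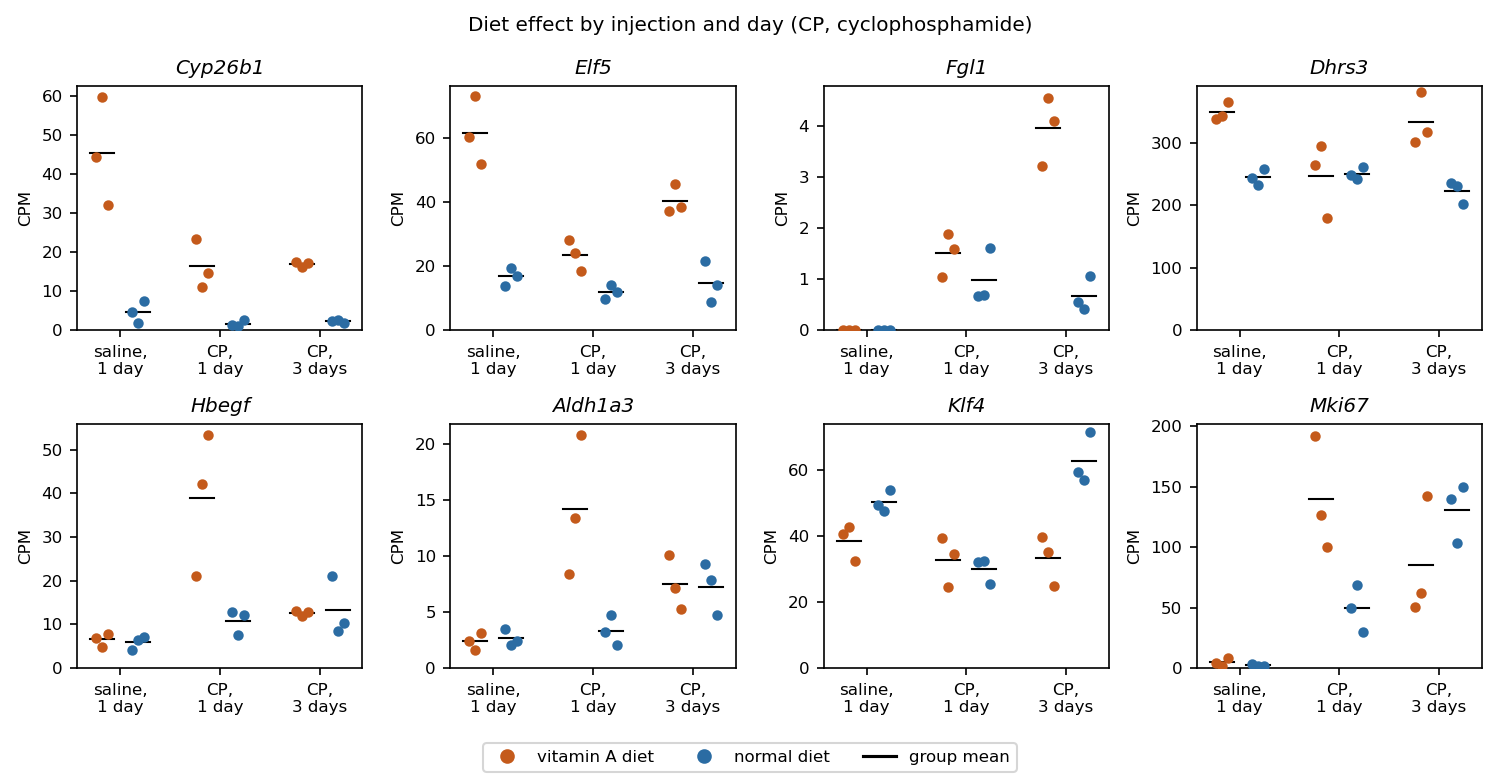
Level in each library, in CPM on linear axes from 0, of 8 genes 1 day after saline, 1 day after cyclophosphamide (CP) and 3 days after it. In each condition vitamin A bladders are on the left and normal diet bladders on the right, and lines give group means (n = 3). Cyp26b1 is higher on vitamin A in all 3 conditions, while Fgl1 is at 0 in saline mice and Hbegf separates by diet at 1 day but not at 3 days.

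In the authors' deposited table for this comparison, 693 features were listed, all with an unadjusted p of at most 0.0499, and 5 had an adjusted p under 0.05. Its ratios run normal diet over vitamin A and are given here with the sign turned. The authors' deposited table has Cyp26b1 at 2.91 (adjusted p = 3.764e-18), Elf5 at 1.45 (0.0115), Fgl1 at 2.57 (0.0115) and Xlr3b at -5.11 (0.000148). The fifth feature in the authors' deposited table has no gene name, and its log2 change is 1.40 (adjusted p = 7.68e-05). With edgeR, the fold changes of the named 4 were close to these, and the adjusted p-values of all but Cyp26b1 were above 0.05.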

How the data were processed

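RNA was sequenced from total RNA of whole bladders, 3 mice in each of 6 groups. The deposited table holds whole-number read counts per gene, not normalised, made by the authors. The tools listed in the submitters' processing notes are featureCounts 1.5.0-p3, HISAT2 2.0.5 and DESeq2 1.20.0, and the build listed is GRCm39. Strandedness is not given in the sources used here. A second deposited table holds the authors' FPKM values, used only for levels between genes. The authors' deposited comparison table gives log2 ratios, p-values and normalised signal means per feature.

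Unnamed features (14417 of 60750, 0.474% to 0.8097% of counts) were left out of the fit. Counts were fitted with edgeR 4.0.16 (TMM, filterByExpr, robust quasi-likelihood, R 4.3.3) over all 18 libraries with 1 mean per group and 12 residual degrees of freedom, and p-values were adjusted by Benjamini-Hochberg over 19323 genes. The fit was tested on simulated data. SE was the log2 change over the root of F. CPM used TMM-scaled library sizes. Totals were 19554132 to 34598952 counts over the 18 libraries, and the median 95% half-width of a log2 change was 0.523. Floors and count bounds cover counting error only. DESeq2 1.42.0 and limma 3.58.1 were alternatives.

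Named genes were those past an adjusted p of 0.05, the 12 higher and 12 lower with the smallest p, a mean log2 CPM of at least 0 and groups that did not overlap, the tested retinoid list members, a panel and the genes of the lists or deposited table that led by p. Members and gene lists were chosen with earlier results of these data known. A gene of the retinoid lists is not reported here. The groups are called biological replicates by the labels.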

Additional observations from a re-analysis of the deposited data

How the results depend on the processing

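With edgeR the diet comparison at 3 days called 1 gene. It called 0 with no filter on low counts, 0 with the replicate block, 11 with DESeq2, 7 with limma's voom, and 0 to 1 with each library left out in turn. The comparison of the diet difference between days called 0 genes, 9 with no filter on low counts, 87 with DESeq2 and 0 to 1 with a library left out. The comparison with saline called 0 genes under each alternative. Under the replicate block Cyp26b1 had an adjusted p of 0.0511. The numbers did not pair the mice: the correlations of same-numbered deviations were -0.119, 0.00139 and 0.0579, and no vitamin A library correlated best with its own number.

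With limma's voom the list medians were 0.0525 for retinol and retinal interconversion, 3.12 for breakdown, -0.36 for matrix repair, -1.02 for lymphocyte markers, -1.17 for mast cell and eosinophil markers and -0.60 for fibroblast markers. With only the 6 libraries the red blood cell median was -0.50. Leaving out a library gave -0.022 to 0.20 for interconversion, -0.54 to -0.11 for lymphocyte markers and -0.31 to 0 for red blood cells. The cause was not tested.

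Log2 changes turned sign with limma's voom for Adh7 (0.089), Krt14 (0.43), Cdkn1a (0.087), Il6 (0.43), Hbegf (0.24) and Acta2 (-0.0096). With a library left out, the lowest and highest were -0.43 and 0.21 for Adh7, -0.23 and 0.25 for Aldh1a3, -1.56 and 0.39 for Krt14, -0.079 and 0.23 for Upk1a, -0.26 and 0.049 for Upk1b, -0.24 and 0.10 for Upk2, -0.038 and 0.41 for Upk3a, -0.0017 and 0.27 for Trp63, -0.16 and 0.035 for Cdkn1a, -0.66 and 0.20 for Il6, -0.33 and 0.41 for Hbegf, and -1.83 and 0.041 for Fos. Of 1918 alternative values for 148 named genes, 112 had the other sign, in 57 genes. With 3 mice a group, a typical gene had a 95% half-width of 0.523 on the log2 scale.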

Other observations

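Some features without a gene name, which were left out of the fit, ranked high in the authors' deposited table. Of 1946 such features tested by edgeR with them kept, 0 passed an adjusted p of 0.05. An unadjusted p under 0.05 was found for 57 in the higher direction on vitamin A and 39 in the lower. Of all tested named genes, 2.06% had such a p in the higher direction and 1.7% in the lower. A feature of 5240 bases at chr14:31837260-31842499 (GRCm39), which the file annotates with a retroviral Gag domain, had 391, 241 and 285 CPM on vitamin A, against 90.0, 134 and 124 CPM on the normal diet. Its groups did not overlap, and its log2 change was 1.39 (SE 0.48, unadjusted p = 0.0112, edgeR adjusted p = 0.996). A feature of 5641 bases at chr6:18842881-18848521, annotated as retroviral polymerase, had 280.3, 213 and 286 CPM on vitamin A and 168, 128 and 119.6 CPM on the normal diet (log2 change 0.90, edgeR adjusted p = 0.655). Elements of this kind have many near-identical copies, so the counts given to any one of them are uncertain.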
